A study of Rattus norvegicus with 6 samples.

Results

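The genes described here build ribosomes in the nucleolus. The list holds 57 genes, put together with earlier results of these data known, so counts over it describe these genes and are no independent evidence of a direction. Each gene is represented by 1 probe set annotated to it alone, chosen by the highest mean log2 signal over 6 arrays, a measure that ignores the groups. A probe set of this kind was found for 56 of the 57 genes, and 55 passed the filter on dim probe sets and were tested, among 10143 genes tested in all. Npm1 (nucleophosmin) is not described because its 3 probe sets are annotated to several genes, and Noc3l lay below the filter, with signals from 2.66 to 18.1.

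The cells were GH4C1, a rat pituitary tumour line of somatolactotroph type that makes growth hormone and prolactin. All cultures received lentiviral particles with polybrene (multiplicity of infection 5) and were grown for 4 days afterwards. In 3 cultures the vector carried POU1F1(R271W), a mutant form, called dominant negative in the series title, of a transcription factor of pituitary cells, together with EGFP, and the 3 control cultures received a vector with EGFP alone. Both transgenes were driven by the PGK promoter, and all cultures derive from 1 cell line. The labels call the replicates biological, and each culture gave 1 array. Signals on the arrays are linear MAS5 intensities, written here as signals, and changes are log2 fold changes of POU1F1(R271W) over control cultures.

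The identity markers of the line were bright on all arrays. Prl, the prolactin gene, fell from 4332 ± 188 in controls to 3175 ± 171 in R271W cultures (SD, n = 3, log2 -0.45, adjusted p = 0.00048), and Gh1, the growth hormone gene, had 6443 ± 348 and 6338 ± 867 and did not pass (adjusted p = 0.853). Of 17 listed markers of other pituitary cells, fibroblasts, endothelium and leukocytes, 16 had a probe set and 4 passed the filter. The summed signal of those 16 was 378 to 418 in controls and 314 to 334 in R271W cultures. Sox2 was the largest part of that sum and the only 1 called (236 ± 8.91 against 176 ± 17.0, SD, n = 3, adjusted p = 0.0196). Pou1f1 itself had 2301 ± 90.1 in controls and 1836 ± 86.2 in R271W cultures (adjusted p = 0.00486), and whether its probe set reads the transgene was not tested. The hybridisation spikes, transcripts added to each sample, averaged 8.93 ± 0.118 on the log2 scale in controls and 9.17 ± 0.113 in R271W cultures. For beta-actin, the 3' probe set over the 5' one gave a mean ratio of 1.82 ± 0.00763 in controls and of 1.96 ± 0.099 in R271W cultures. In both measures the groups were apart, and both had an exact two-sided permutation p of 0.1, the smallest that 3 arrays a group can give. The GAPDH ratio overlapped between groups (0.993 ± 0.0599 against 0.981 ± 0.0153). The median signal of an array was 22.4 to 22.9 in controls and 25.5 to 26.9 in R271W cultures. The part of these measures in the results was not tested. Each array is scaled to the same trimmed mean, so a difference in RNA content per cell is not measured. In cultures measured in bulk, fewer cells expressing a gene and less RNA per cell cannot be told apart.

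Ribosome assembly begins in the nucleolus, where RNA polymerase I makes a long precursor of the ribosomal RNAs. Small nucleolar ribonucleoproteins (snoRNPs) guide chemical changes on this precursor: box C/D particles carry out 2'-O-methylation and box H/ACA particles make pseudouridine. Large sets of assembly factors then fold, cut and trim the precursor, separately for the small and the large subunit, before export to the cytoplasm. The demand for this machinery follows growth, and MYC-family proteins, which bind E-box sequences with their partner MAX, are known to drive many of its genes.

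Many ribosome biogenesis genes had lower signals in R271W cultures. Of the 55 tested, 30 fell and 0 rose at a limma adjusted p under 0.05, which is 54.5% of them, whereas 8.98% of all genes tested fell and 9.87% rose. The other 25 did not pass, and 24 of these read below 0. By direction alone, 54 of 55 read below 0, compared with 43.9% of all genes. The median log2 fold change was -0.42 (quartiles -0.55 and -0.23), against 0.06 for all genes (quartiles -0.18 and 0.32), and 49 of the 55 lay under the lower quartile of all genes. For 39 of the 55 genes the highest R271W signal was under the lowest control signal, which held for 16.6% of all genes; for 1 gene the reverse held, as for 21.2% of all genes. The sizes were moderate: 11 of the 55 fell by at least 1.5-fold, as did 3.03% of all genes, and Dkc1 alone by more than 2-fold. Counted among genes called lower, 11 of the 30 members reached 1.5-fold, and 307 of the 911 over all genes did.

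**Figure D1:**
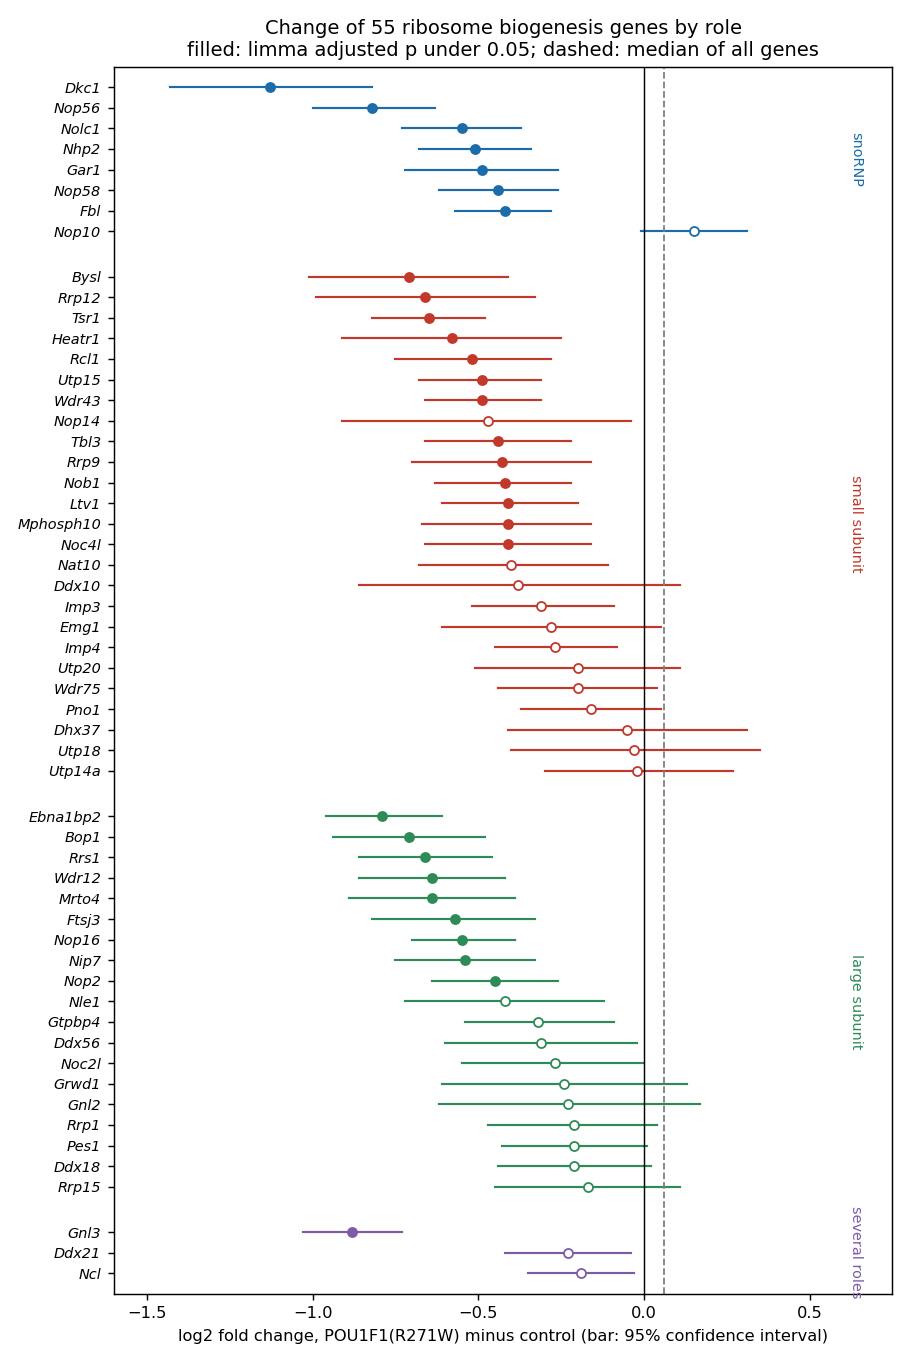
Log2 fold change of each of the 55 tested genes (x axis, POU1F1(R271W) minus control, n = 3 arrays a group) by role (y axis), with 95% confidence intervals as bars and filled points for genes past a limma adjusted p of 0.05. 54 of the 55 points lie left of 0, and Nop10, in the snoRNP group, lies to the right of it.

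The tested members are bright genes, and the lowest mean signal among them was 85.6 (Dhx37). In a count added after the data had been seen, 6127 genes had a mean at or above that value, and 13.8% of them were called lower and 12.1% higher, with a median log2 fold change of 0.00. Per array, the median of the 55 genes relative to their control means read -0.0224, 0.0171 and 0.0159 in control replicates 1 to 3, whereas R271W replicates 1 to 3 read -0.463, -0.403 and -0.369. The groups were apart, with R271W replicate 1 the lowest. Leaving out control replicate 2 or 3 gave 25 calls each, and leaving out any of the other arrays gave 27 to 32. Over all genes, 654 of 10141 and 675 of 10134 fell without control replicates 2 and 3. The other fits had 669 to 927 genes that fell, against 911 of 10143 with all arrays.

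**Figure D2:**
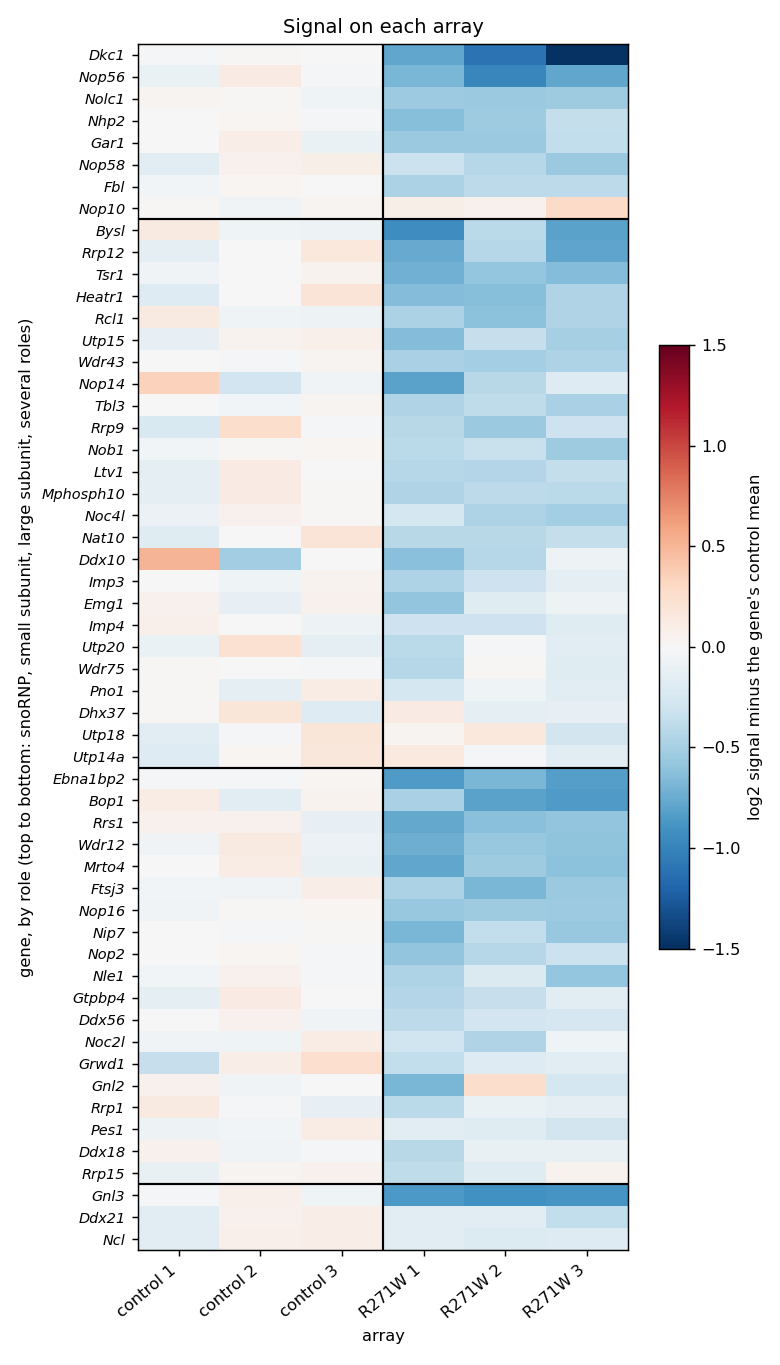
Log2 signal of the 55 genes (rows, ordered by role and change) on each of the 6 arrays (columns), relative to the gene's mean over the control arrays, on a colour scale from -1.5 to 1.5. The R271W columns are blue (lower) for most rows, among the deepest Dkc1, Nop56 and Gnl3, while Nop10 is pale red (higher) in all 3.

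The start sites of the members were read for letters known as binding sites, in RefSeq windows of 250 bases before to 50 after the start (rat build GRCr8, gene strand), found for 52 of the 57 genes. The E-box CACGTG, a palindrome bound by MYC and MAX, stood in 21 of the 52 (40.4%), against 6.65% of 27457 promoter windows of all genes and 9.92% of 8501 windows of the genes tested. Of its 22 copies, 10 lay upstream of the start and 12 after it, and 19 within 100 bases. Among members that fell 10 of 26 windows held it and among those tested and not called 10 of 24, which are 38.5% and 41.7%. Over all genes, members included, it stood in 15.7% of 766 windows of genes called lower and 6.9% of 855 of genes called higher. The ETS core CCGGAAG, searched on both strands, stood in 44.2% of the 52 windows, compared with 9.22% of all windows and 19.0% of those of tested genes. The POU1F1-like motif ATGNATA, also searched on both strands, was in 0 of the 52, in 9.59% of all windows and in 3.4% of those of tested genes. These counts describe letters in a window and say nothing of binding. To show where the E-box sits in the members that fell, its surroundings in all 10 are printed 5′ to 3′ with the motif in capitals and up to 12 bases on either side.
Dkc1 (chrX:157751455-157751484, plus strand): agcgtcccggcgCACGTGcgggccccaccc
Gnl3 (chr16:6219790-6219819, minus strand): agttccagttcgCACGTGgcgcccgagacg
Ltv1 (chr1:9398601-9398630, minus strand): gacctgtctaccCACGTGtagagctgccgg
Rrp12 (chr1:250655298-250655327, minus strand): gctgagaatacaCACGTGggttctgctgtg
Rcl1 (chr1:236238114-236238143, plus strand): cctgttctaaacCACGTGgacgcgtcgggg
Tsr1 (chr10:60258798-60258827, plus strand): gtttactcggtgCACGTGggcagttagaat
Fbl (chr1:92597416-92597445, plus strand): ggcgcttttttcCACGTGtgaaagcctgag
Ebna1bp2 (chr5:137433552-137433581, plus strand): gcgtcttgctggCACGTGgagtggcagccg
Bysl (chr9:20880361-20880390, plus strand): tagccggcttcaCACGTGtaaactttgtgg
Nop2 (chr4:159618992-159619015, plus strand): cttccccaagtgCACGTGgagcgg
The first base of the motif lies 184 bases before the start in Dkc1, 25 before it in Gnl3 and 61 before it in Ltv1, and 4 to 39 bases after the start in the other 7.

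**Figure D3:**
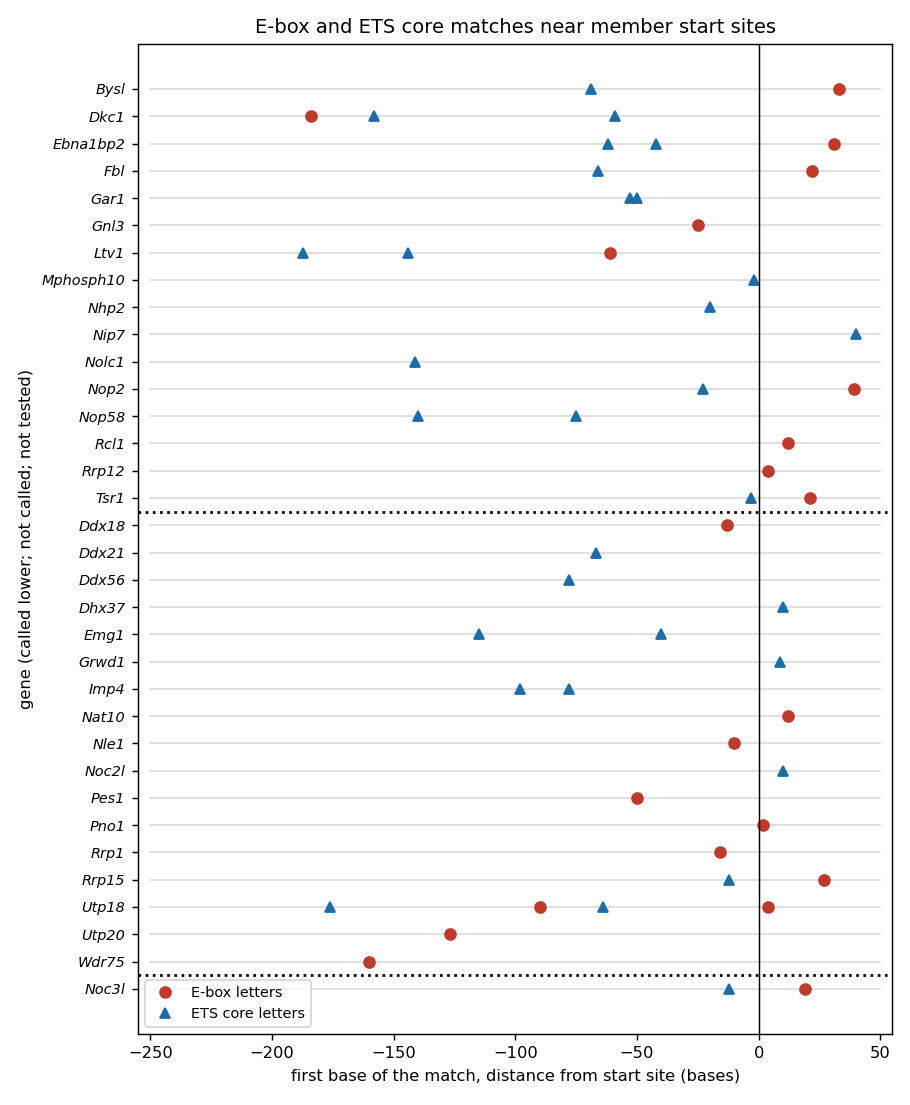
Position of E-box and ETS core matches (x axis, first base of the match relative to the start site, in bases) in the 34 members with either (y axis), of which 16 fell, 17 were tested and not called and 1 was not tested. Of the 22 E-box copies 12 lie after the start site, and they occur both among genes that fell and among genes not called.

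Among the transcription factors known to use the E-box, only MYC-family genes and Max were read, and others were not looked at. Mycn fell in these cultures from 988 ± 51.2 to 326 ± 30.9 (SD, n = 3). Max, the shared partner of MYC proteins, fell from 598 ± 21.2 to 465 ± 13.5 (log2 -0.36, adjusted p = 0.00708). Myc had 110.5 ± 5.48 and 76.7 ± 23.7 and did not pass (log2 -0.57, adjusted p = 0.0751). Mycl, a dim gene, had 36.0 ± 16.2 and 28.8 ± 15.9, overlapped between groups and did not pass (log2 -0.41, adjusted p = 0.644). The part of these genes in the fall of the ribosome biogenesis genes was not tested.

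The snoRNP genes had the highest share of calls by role, with 7 of 8 that fell and 0 that rose (median log2 fold change -0.50). Of all genes, 8.98% fell and 9.87% rose. Mean control signals ran from 274 (Gar1) to 2229.5 (Nop58) for snoRNP genes and from 87.5 (Dhx37) to 1620.5 (Utp15) for small-subunit genes. Standard errors reached 0.14 (Dkc1) and 0.22 (Ddx10) in these groups, and the part of brightness in the share of calls was not tested. Without the intensity trend in the variance model 3 of the 8 snoRNP genes fell, as did 2 of 25 small-subunit and 6 of 19 large-subunit genes. In that fit 2.81% of all genes fell. Dkc1 encodes dyskerin, the pseudouridine synthase of H/ACA particles, which also belongs to telomerase. Control cultures had signals of 502, 514 and 513, and R271W cultures had 297, 236 and 182. The R271W arrays lay far below the controls and were spread more widely, and the gene fell by 54.2% (log2 -1.13, 95% confidence interval -1.43 to -0.82, adjusted p = 0.000148). Its promoter holds the E-box upstream together with ETS core letters in the reverse orientation, and its 250 bases upstream of the start (chrX:157751401-157751650, GRCr8, plus strand) are printed with both motifs in capitals.
Dkc1 upstream: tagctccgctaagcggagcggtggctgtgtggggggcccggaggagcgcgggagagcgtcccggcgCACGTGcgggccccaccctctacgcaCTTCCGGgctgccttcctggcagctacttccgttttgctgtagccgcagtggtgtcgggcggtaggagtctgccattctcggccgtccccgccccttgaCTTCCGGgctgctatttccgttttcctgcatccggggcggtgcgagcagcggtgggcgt

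The list holds 3 core genes of box C/D particles, and all 3 fell, as did 8.98% of all genes. Nop56, a scaffold protein of the particle, had signals of 1898, 2227 and 2011 in controls and 1264, 1037 and 1185 in R271W cultures (log2 -0.82, SE 0.09, adjusted p = 3.97e-05). Its paralogue Nop58 had 1997, 2333 and 2359 against 1773, 1651 and 1510.3 (log2 -0.44, adjusted p = 0.00289). Fbl encodes fibrillarin, the methyltransferase of the particle, and had 1539.5, 1623 and 1591 against 1137, 1202 and 1204 (log2 -0.42, adjusted p = 0.000827). In all 3 the highest R271W array stayed below the lowest control array, and the margin was narrowest for Nop58.

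The H/ACA genes divided. Nhp2, an RNA-binding core protein, fell from 1348, 1369 and 1316 to 862, 931 and 1049 (log2 -0.51, adjusted p = 0.000803). Gar1, which joins mature particles, fell from 274 ± 18.8 to 195 ± 14.8 (log2 -0.49, adjusted p = 0.00694). Nop10, the smallest core protein, had 1478, 1409.8 and 1509 in controls and 1563, 1533 and 1792 in R271W cultures, all 3 of the latter higher, and did not pass (log2 0.15, interval -0.01 to 0.31, adjusted p = 0.21). It is singled out after its values were seen, as the only tested member above 0. Its direction depended on the scaling: under quantile normalization it rose (0.28, adjusted p = 0.00913), and under median centring it read -0.05. Nolc1, a nucleolar phosphoprotein that binds both kinds of snoRNP, fell from 501, 492 and 467 to 332, 331 and 335 (log2 -0.55, adjusted p = 0.000651), and 2 dimmer probe sets of the gene fell too (log2 -0.87 and -1.08).

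Of the 25 small-subunit factors 13 fell and 0 rose, with a median log2 fold change of -0.41 and a range from -0.71 to -0.02. Over all genes tested, 8.98% fell and 9.87% rose. Tsr1, a GTPase-like factor of the cytoplasmic pre-40S particle, had signals of 689, 709 and 742 in controls and 431, 479 and 453 in R271W cultures (log2 -0.65, adjusted p = 0.000145). Bysl, which encodes bystin, another factor of the maturing small subunit, had 272, 237 and 234 against 129.9, 187 and 141 (log2 -0.71, adjusted p = 0.00361). The groups were apart in both genes, and R271W replicate 2 was the highest of its group in each.

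The small-subunit processome is a large particle that forms early, on the nascent precursor, around U3 snoRNA. Wdr43, which belongs to its UTP-A subcomplex, fell from 495, 489.9 and 513 to 357, 351 and 361 (log2 -0.49, adjusted p = 0.00128). Utp15, of the same subcomplex, fell from 1483, 1675 and 1703 to 1031, 1276 and 1149.6 (log2 -0.49, adjusted p = 0.00179), and its dimmer probe set fell too (log2 -0.92). Rcl1, a processome factor related to RNA cyclases, fell from 310.3, 269 and 268 to 203, 184 and 205 (log2 -0.52, adjusted p = 0.00514). In these 3 genes no R271W array reached a control array.

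Nob1, the endonuclease that makes the final cut of 18S ribosomal RNA, had 322, 336 and 337 in controls and 250.2, 262 and 229.8 in R271W cultures (log2 -0.42, adjusted p = 0.00863). The other 7 that fell were Rrp12, Ltv1, Tbl3, Heatr1, Noc4l, Mphosph10 and Rrp9, with log2 fold changes from -0.66 to -0.41. Of the 12 that did not pass, Imp4, Imp3 and Nat10 had adjusted p values of 0.0502, 0.0535 and 0.0598 and groups that did not overlap. Imp3 and Imp4 form a complex with Mphosph10 on U3 snoRNA, and Nat10 is the enzyme that acetylates 18S ribosomal RNA. At the other end Utp14a (169 ± 21.3 against 167 ± 18.6), Utp18 and Dhx37 had log2 fold changes of -0.02, -0.03 and -0.05, with intervals from -0.30 to 0.27, -0.40 to 0.35 and -0.41 to 0.31. Utp14a and Dhx37 work together at a late step of the processome, as activator and helicase. The number of calls depended on single arrays: 8 small-subunit genes fell without control replicate 2 and 8 without control replicate 3. In those fits 654 of 10141 and 675 of 10134 genes fell. Rrp9, Heatr1, Mphosph10 and Noc4l each lost the call without any of 4 single arrays, Rrp12 without control replicate 3 (adjusted p = 0.0536) and Ltv1 without control replicate 2 (0.0572).

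For Rrp9 the adjusted p ran from 0.0641 to 0.14 in the fits that lost the call. It ran from 0.0553 to 0.0984 for Heatr1, from 0.0669 to 0.12 for Mphosph10 and from 0.0688 to 0.0947 for Noc4l. Their log2 fold changes stayed between -0.58 and -0.30 in those fits.

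Of the 19 large-subunit factors tested 9 fell and 0 rose, with a median of -0.42 and a range from -0.79 to -0.17. Over all genes tested, 8.98% fell and 9.87% rose. Ebna1bp2, an early nucleolar assembly factor of the large subunit, had signals of 659, 655 and 681 in controls and 371, 412 and 375 in R271W cultures (log2 -0.79, interval -0.96 to -0.61, adjusted p = 3.78e-05). Rrs1, which helps bring the 5S ribonucleoprotein into the particle, had 578, 580.1 and 507 against 326, 358 and 368 (log2 -0.66, adjusted p = 0.000322). Nop16 had 836, 879.9 and 882 against 586, 599 and 595 (log2 -0.55, adjusted p = 0.000253). All 3 genes had R271W arrays close together and well under the controls.

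The PeBoW complex, named for Pes1, Bop1 and Wdr12 and needed to process the precursor of 28S and 5.8S ribosomal RNA, was read through all of its members. Bop1 fell from 781, 641 and 751 to 517, 415 and 401 (log2 -0.71, adjusted p = 0.00065). Wdr12 fell from 351, 400.1 and 343 to 219, 245 and 239 (log2 -0.64, adjusted p = 0.000827). Pes1 had 252 ± 18.3 and 218 ± 8.58 and did not pass (log2 -0.21, interval -0.43 to 0.01, adjusted p = 0.2), although its groups did not overlap. Whether Pes1 differed from its partners in change was not tested.

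Mrto4, a relative of the ribosomal stalk protein P0 that holds its place during assembly, fell from 242, 263 and 225 to 142, 168 and 158 (log2 -0.64, adjusted p = 0.00205), and its dimmer probe set fell too (log2 -0.96). The other 3 that fell were Ftsj3, a ribosomal RNA methyltransferase (log2 -0.57), Nip7 (-0.54) and Nop2, which methylates a cytosine of 28S ribosomal RNA (-0.45). The 10 that did not pass had log2 fold changes from -0.42 (Nle1) to -0.17 (Rrp15). Nle1 and the GTPase gene Gtpbp4 came nearest to the threshold, with adjusted p values of 0.0582 and 0.0599. Gnl2, a nucleolar GTPase gene, had 207 ± 8.71 in controls and 184 ± 60.6 in R271W cultures, which overlapped widely.

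Of the nucleolar genes with several roles, Gnl3 had the smallest adjusted p of all members. It encodes nucleostemin, a GTP-binding protein of proliferating cells that shuttles between nucleolus and nucleoplasm. Its signals were 1719.5, 1848 and 1676 in controls and 959, 932 and 949 in R271W cultures, a fall of 45.8% (log2 -0.88, interval -1.03 to -0.73, adjusted p = 3.8e-06). The R271W arrays lay close together and far from the controls. Ncl, which encodes nucleolin, the abundant RNA-binding protein of the nucleolus, had 2869, 3405 and 3451 against 2879, 2813 and 2818, where control replicate 1 lay among the R271W arrays, and it did not pass (log2 -0.19, adjusted p = 0.112). Ddx21, a helicase of both polymerase I transcription and processing, read -0.23 (adjusted p = 0.0995) on its brightest probe set, at 1030.3 ± 95.9 and 877 ± 72.1. Its other probe set fell from 385 ± 19.8 to 228 ± 14.8 (log2 -0.76, adjusted p = 0.000186), so the call for this gene depended on the probe set.

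By role, the median log2 fold changes were -0.50 for snoRNP, -0.41 for small-subunit and -0.42 for large-subunit genes. In the same order 7 of 8, 13 of 25 and 9 of 19 fell, against 8.98% of all genes. On single arrays the medians relative to control ran from -0.553 to -0.467 for snoRNP, from -0.446 to -0.353 for small-subunit and from -0.477 to -0.323 for large-subunit genes in R271W cultures. The snoRNP range overlaps that of the large-subunit genes and lies below that of the small-subunit genes. Under quantile normalization the medians by role were -0.45, -0.43 and -0.39 in the same order. A difference between roles was not tested. A second or further probe set existed for 13 members. Of the 14 such probe sets that could be tested all read below 0, and 8 fell, of which 6 belonged to genes called lower and 2 to Ddx21 and Wdr75. The 3 of called genes that did not pass belonged to Rrp12 (log2 -0.13 and -0.65, adjusted p = 0.789 and 0.111) and Mphosph10 (log2 -0.29, adjusted p = 0.16). Among all probe sets tested 7.22% fell and 8.57% rose.

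Further genes of the pathway were read from lists of other assembly factors, RNA polymerase I and the nuclear exosome. Among 74 other assembly factors tested of 78 listed, 18 fell and 2 rose (24.3% and 2.7%), with a median of -0.19. Of all genes tested 8.98% fell and 9.87% rose. Nmd3, the export adaptor of the large subunit, fell from 480.1 ± 14.5 to 317 ± 14.9 (log2 -0.60), and Rpf2, the partner of Rrs1, from 245 ± 24.2 to 148 ± 9.36 (log2 -0.73). Wdr46, a processome gene, fell from 165 ± 13.5 to 92.7 ± 6.78 (log2 -0.83). The 2 that rose, named after their values were seen, were Nop53 (log2 0.27, adjusted p = 0.0281), which recruits the exosome to the large subunit, and Sbds (log2 0.39, adjusted p = 0.0428), a late cytoplasmic factor of the large subunit.

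RNA polymerase I genes had 2 of 14 tested that fell (14.3%) and 0 that rose, with a median of -0.26. That share is near the 8.98% of all genes that fell and the 13.8% of genes at or above the lowest mean signal of a tested member. Some of the 14, such as Ttf1 (72.7 ± 9.42 and 74.7 ± 5.56), lay below that signal of 85.6. By direction, 12 of the 14 read below 0 (85.7%), compared with 43.9% of all genes. Polr1b, the second largest subunit, fell from 168 ± 24.2 to 90.7 ± 15.1 (log2 -0.89, adjusted p = 0.00207), and Polr1d, a subunit shared with RNA polymerase III, from 1131 ± 8.72 to 914 ± 130.1 (log2 -0.32, adjusted p = 0.0346). Among 12 exosome and nuclease genes 0 fell and 1 rose (0% and 8.33%, against 8.98% and 9.87% of all genes). The 1 that rose was Exosc5, from 74.0 ± 10.7 to 135 ± 17.5 (log2 0.86, adjusted p = 0.00314). The median of that list was -0.10. Whether these lists differ from the 55 members was not tested.

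**Figure D4:**
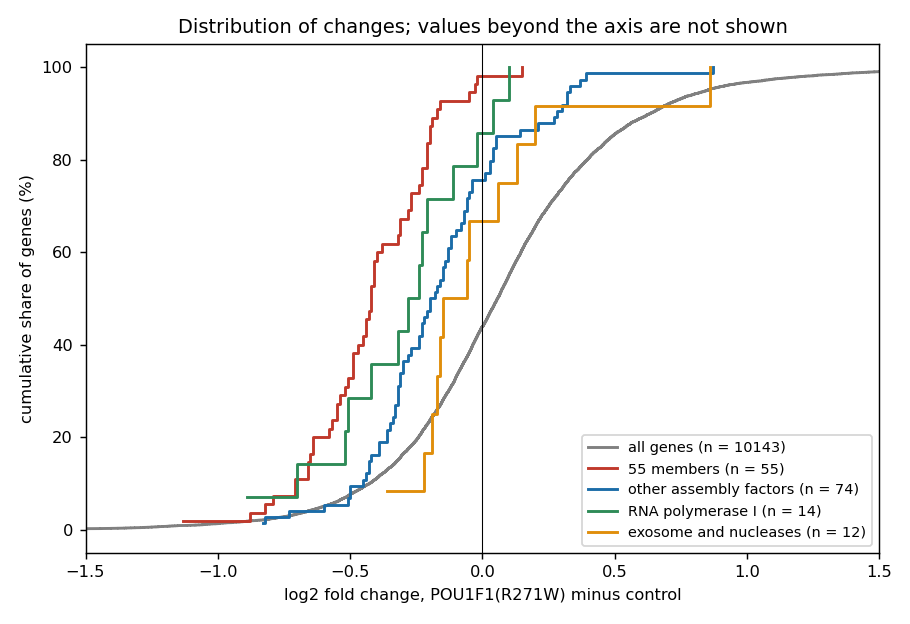
Cumulative share of genes (y axis, percent) by log2 fold change of POU1F1(R271W) over control (x axis) for all 10143 genes tested, the 55 members and the 3 lists of other pathway genes. The median is -0.42 for the members, -0.26 for RNA polymerase I, -0.19 for other assembly factors, -0.10 for exosome and nuclease genes and 0.06 for all genes.

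The number of members called varied with the scaling of the arrays, and their median stayed below 0. Under quantile normalization 32 members fell and 1 rose (8.94% and 9.19% of all genes), under 75th percentile centring 37 and 0 (12.9% and 6.81%) and under median centring 45 and 0 (20.4% and 4.35%). Median centring moves the median of all genes to -0.14. The gap between the median of the members and that of all genes was -0.48 as first tested and -0.44 under quantile normalization. Both centrings shift all genes of an array alike, so they could not change this gap and it stayed at -0.48. Without the intensity trend in the variance model 12 members fell and 0 rose (2.81% and 3.57% of all genes), and all 12 were among the 30. These 12 were Gnl3, Nop56, Dkc1, Nop16, Nolc1, Rrs1, Wdr12, Ebna1bp2, Tsr1, Wdr43, Mrto4 and Ftsj3, and they passed in every alternative and with every array left out.

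**Figure D5:**
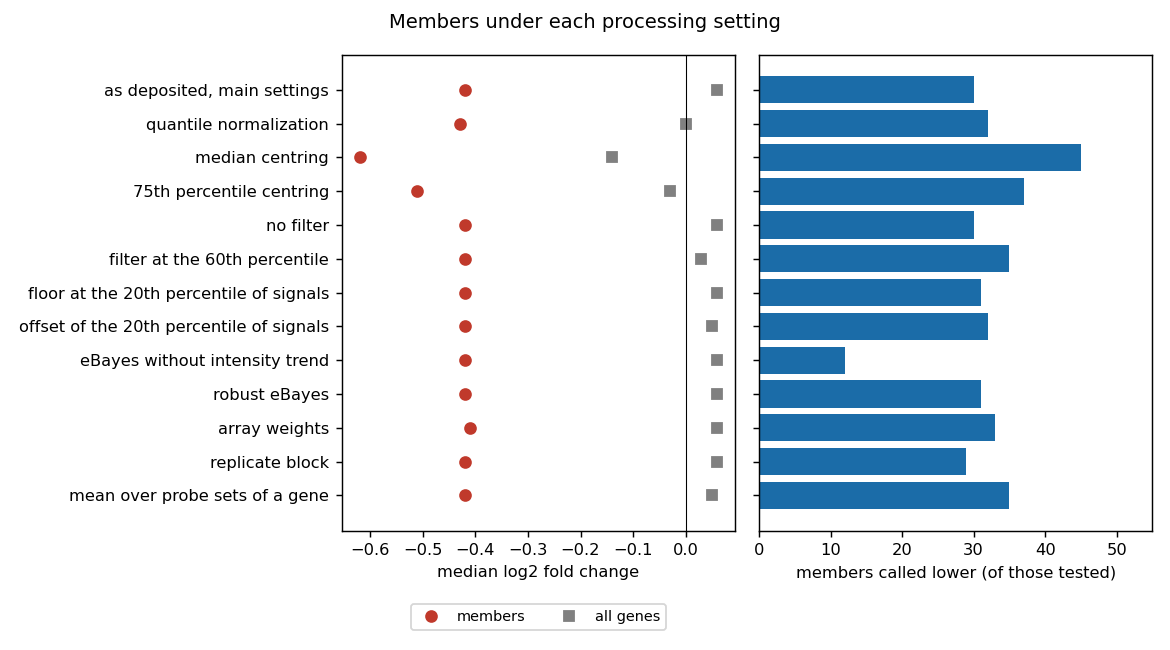
Median log2 fold change of the members and of all genes (left, x axis) and number of members called lower (right, x axis) under the main settings and 12 alternatives (y axis). The members' median stays between -0.62 and -0.41 and below that of all genes in each. The variance models and the replicate block leave fold changes as they are, and both centrings shift all genes alike. These settings could not change the gap between the medians. The number called lower runs from 12 without the intensity trend to 45 under median centring.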

How the data were processed

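RNA from 6 cultures was hybridised to Affymetrix rat arrays. The deposited intensity values are MAS5 signals made by the authors, per the submitters' processing notes; its settings were not stated. Each array had been scaled, as the values show, to a mean of 100 after trimming 2% at each end, which ties every signal to the bright probe sets of its array. Of 31042 probe sets that are not controls, 20826 had 1 symbol, 436 several and 9780 none in the platform annotation, whose symbols were set against a RefSeq table of GRCr8 and needed no change.

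Signals were tested as log2 with limma 3.58.1 in R 4.3.3 (intensity trend, two-sided, group as the only term) with Benjamini-Hochberg adjustment over 18625 probe sets at or above the 40th percentile of mean log2 signal (11.2). Intervals cover 95%. The number of arrays limits the precision. The test was tried on simulated data with known changes. The labels do not say whether replicates with the same number were paired. Correlations of same-numbered deviations were -0.00165, 0.0101 and -0.0201, and those of other pairs ran from -0.0207 to 0.0228. These values do not show how the cultures were handled.

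Up to 6 called members a role with the smallest p are given array by array, and up to 3 called genes of each pathway list; others are given by range. Alternatives were scaling, filter, floor (3.72), offset, variance model, array weights, replicate block, probe sets and leaving out each array. The members and lists were chosen with earlier results of these data known. Promoter windows are RefSeq's, the first listed start a gene. Figures were drawn with matplotlib 3.10.9.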

Additional observations from a re-analysis of the deposited data

Results flagged for a closer look

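The hybridisation spikes, control transcripts added to every sample and not used in the comparison, were brighter in R271W cultures, with a log2 difference of 0.23 (9.17 ± 0.113 against 8.93 ± 0.118, n = 3, 18 probe sets), with no overlap and an exact two-sided permutation p of 0.1, the smallest that 3 against 3 allow. Their part in the changes of the ribosome biogenesis genes was not tested.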

How the results depend on the processing

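Calls of 12 of the 30 members that fell held in all 12 alternatives and in all 6 fits that left out an array, and those of 24 held in the latter. The members' median was -0.62 under median centring and -0.51 under 75th percentile centring. For snoRNP genes it was -0.70 and -0.58, for small-subunit genes -0.61 and -0.49, and for large-subunit genes -0.62 and -0.50. Quantile normalization gave -0.45, -0.43 and -0.39 for the same groups. Under median centring 16 large-subunit genes fell, and 730 probe sets rose and 3132 fell, against 1596 and 1344 as first tested. Quantile normalization called 1 member, the snoRNP gene Nop10, higher; it read -0.05 under median centring. Without the intensity trend 12 members fell, 3 of them snoRNP and 2 small-subunit genes, and 634 probe sets rose and 431 fell; the cause was not tested. Leaving out 1 array gave 25 to 32 members that fell, 8 to 14 small-subunit genes, 1000 (without R271W replicate 2) to 1346 probe sets that rose and snoRNP medians of -0.55 to -0.47. Of all genes tested 654 to 927 fell in these fits. Members near 0 changed sign without passing: Utp18 read 0.01 with array weights, and with an array left out Utp18 ran from -0.12 to 0.10, Utp14a from -0.11 to 0.07, Dhx37 from -0.15 to 0.04 and Gnl2 from -0.47 to 0.00. With the replicate block 29 members fell, Noc4l being lost (adjusted p = 0.0521). Whether the shared numbers mark pairs is not known. Averaging probe sets of a gene gave 35 that fell, 28 of them among the 30; Rrp12 (adjusted p = 0.107) and Mphosph10 (0.0504) were lost.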
